A study of Mus musculus with 17 samples.

Results

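The regions described here are broad H3K27me3 domains found in all 3 groups of mature mouse thymocytes: 1544 of 60577 merged H3K27me3 regions (2.55%), and 21.2% of the 7266 regions common to the 3 groups. Enriched intervals, called islands, were merged where those of different groups shared at least 1 bp, and a domain had an island of each group and a merged width of 15000 bp or more. Presence in each group and width are therefore how the domains were chosen and are no result. The groups were CD8 thymocytes lacking Tcf1 and Lef1 (DKO CD8, genotype Tcf1-/-Lef1-/-), wild-type CD4 thymocytes (WT CD4) and wild-type CD8 thymocytes (WT CD8). Both genes were deleted by CD4-Cre, which starts to act when thymocytes carry both CD4 and CD8, so earlier stages are not covered by the deletion. The sort of CD8 cells took those high for TCRβ that lacked CD69 and CD24, the mature ones. Each group also had an input library, and Tcf1 was mapped in splenic CD8 cells of wild-type mice, with Tcf1-/- splenic CD8 cells, also made by CD4-Cre, as the control. Titles and source names call the WT CD4 samples CD4 cells while a phenotype label names CD8, and the titles were followed. No strain, age or number of animals per library was found in the labels.

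H3K27me3, the trimethylated form of lysine 27 on histone H3, is laid down by Polycomb repressive complex 2. It is found over genes that a cell keeps silent, most of all over regulators of other lineages, where it can spread over long stretches of sequence. Removal of this mark and gain of acetylation at the same lysine (H3K27ac) go with gene activation, and both marks cannot sit on the same histone tail. H3K4me3 is typical of promoters, and its presence within H3K27me3 is known as a bivalent state. Tcf1 and Lef1 belong to the same family of transcription factors and are needed for T cell development, and the study asked how their loss alters histone marks in CD8 T cells.

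With 1 library per group and mark, differences between groups could not be set against replicates and carry no p-value. Intervals (95%, exact Clopper-Pearson) cover counting error only. The H3K27me3 islands held 3070897 reads in DKO CD8, 4025243 in WT CD4 and 2569785 in WT CD8. Total reads per library were not known. Positions are in the mm9 build. No annotation or genome of that build was used here, so no gene is named, no sequence is shown, the identity of the cells was not checked against marker genes and the deletion of Tcf1 and Lef1 was not checked. A read count over a region in bulk cells cannot tell more marked cells from more mark per cell.

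The domains covered 39.7 Mb, which was 1.54% of the sequence between the outermost islands. Their median width was 21.0 kb, with the middle 50% between 17.4 and 28.0 kb. By width, 678 domains were under 20 kb, 532 were 20 to under 30 kb, 247 were 30 to under 50 kb and 87 were 50 kb or wider. The 5722 narrower common regions had a median width of 7.2 kb and covered 43.6 Mb, so the domains spanned nearly as much sequence in far fewer pieces. A further 84 regions reached 15000 bp but had no island in at least 1 group.

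The 2 widest domains stood apart from the rest in size. The widest lay on chromosome 11, from 95938201 to 96187800 (249.6 kb), and the next on chromosome 15, from 102733601 to 102981200 (247.6 kb). The widest held 10472 reads in DKO CD8, 11567 in WT CD4 and 3351 in WT CD8. The second held 10995 reads in DKO CD8, 11555 in WT CD4 and 3608 in WT CD8. In each of these domains the DKO CD8 and WT CD4 islands left few gaps, whereas WT CD8 had 27 islands in the first and 31 in the second. Of the next 8, from 130.2 down to 88.2 kb wide, 2 more lay on chromosome 11 and 2 on chromosome 3. The third widest, on chromosome 8 from 126058201 to 126188400, differed in kind from those 2. It held 30376 reads in DKO CD8, 22505 in WT CD4 and 14290 in WT CD8, and 61.3% of its bases in DKO CD8, 66.8% in WT CD4 and 69.7% in WT CD8 also lay under H3K27ac islands.

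That chromosome 8 domain was 1 of 4 with more than 10 times the median read density of the domains in at least 1 group. The others lay on chromosome 1 from 172991801 to 173020000, on chromosome 11 from 3016801 to 3100200 and on chromosome 17 from 13732801 to 13749200. The chromosome 11 domain held 26137 H3K27me3 reads in DKO CD8, 26890 in WT CD4 and 16658 in WT CD8, and H3K27ac islands lay over 95% of its width in DKO CD8, 98.6% in WT CD4 and 0% in WT CD8. H3K4me3 islands covered 93.5% of that domain in DKO CD8, 92.6% in WT CD4 and 94.2% in WT CD8. H3K9ac islands covered 94.0%, 96.4% and 94.0% of it in the same order. High signal of opposite marks over the same bases goes against the usual division between active and silenced sequence. Inputs were not analysed, and repeated sequence and mapping in these 4 domains were not tested. The shares of domain bases under H3K4me3, H3K27ac and H3K9ac islands are also given without them. The same holds for H3K27ac and H3K4me3 inside and outside H3K27me3 islands. Other totals of bases and reads are given with these domains only.

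At the width limit, 38 domains were exactly 15000 bp wide and 41 common regions were 1 step of the calling grid narrower, at 14800 bp. The first domain at the limit, on chromosome 1 from 89092601 to 89107600, held 318 reads in DKO CD8, 454 in WT CD4 and 135 in WT CD8. A common region just under it, on chromosome 1 from 194010001 to 194024800, held 280 reads in DKO CD8, 385 in WT CD4 and 67 in WT CD8. A second, on chromosome 2 from 22469401 to 22484200, held 657 reads in DKO CD8, 638 in WT CD4 and 157 in WT CD8. That is more than the domain at the limit held in each group. In these examples the limit did not part stronger from weaker regions, and all regions at the limit were not compared.

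The name of a broad domain common to all groups was checked against single islands. An island of its own, before merging, was often narrower: 125 domains contained an island of 15000 bp or more in each of the 3 groups, and 446 contained none of that width in any group, so that their width came from merging. A single island of that width was present in 654 domains in DKO CD8, 942 in WT CD4 and 165 in WT CD8. Such an island was found for DKO CD8 alone in 133 domains, for WT CD4 alone in 407 and for WT CD8 alone in 20. The median of the widest island in a domain was 13.6 kb in DKO CD8, 16.6 kb in WT CD4 and 7.4 kb in WT CD8. By the rule each group had an island in every domain, but a domain need hold no base under islands of all 3 groups. Such shared bases were not counted. Breadth within a single library was most often seen in WT CD4 and least often in WT CD8.

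Domains were unevenly spread over the chromosomes. Chromosome 11 had the most, 169 domains or 1.42 per Mb, and chromosome 19 followed in density with 64 domains or 1.1 per Mb, against 0.598 per Mb overall. Chromosomes 11, 2, 4, 7 and 5 together held 728 domains (47.2%) on 29.0% of the sequence. Chromosome X, at 6.34% of the sequence, held 7 domains (0.453%), or 0.0428 per Mb, and chromosome Y held none. The narrower common regions were also sparse on chromosome X (94, or 1.64% of them), and of the common regions of chromosome X 6.93% were wide enough to be domains, against 28.0% on chromosome 11. Of all H3K27me3 islands in a library, chromosome X held 3.54% in DKO CD8, 1.63% in WT CD4 and 6.36% in WT CD8. The low number of domains on chromosome X thus did not go with a low share of islands in WT CD8.

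**Figure D1:**
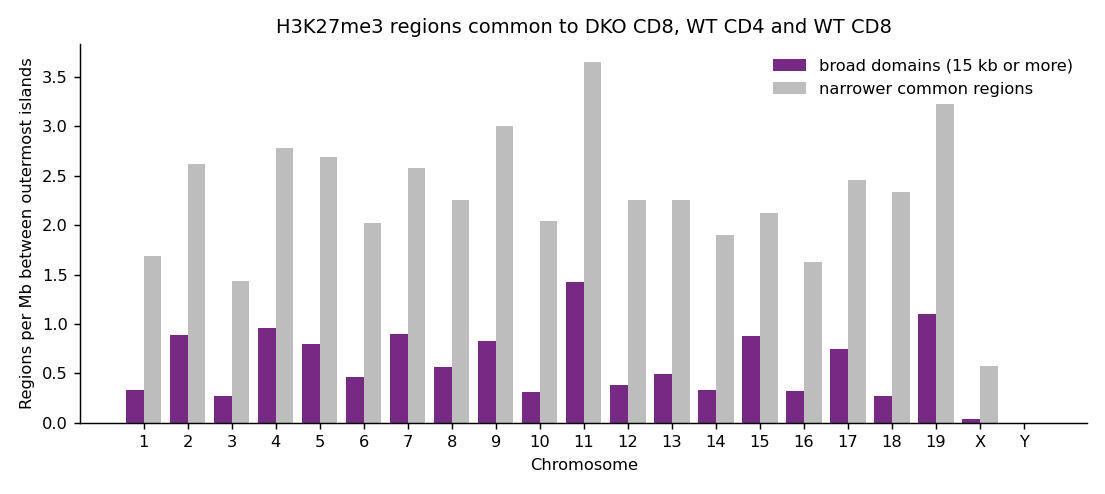
Broad H3K27me3 domains (purple) and narrower H3K27me3 regions common to the 3 groups (grey), as regions per Mb of sequence between the outermost islands, for each chromosome. Chromosome 11 stands highest with 1.42 domains per Mb, chromosome X has 0.0428 per Mb and chromosome Y has none.

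Neighbouring domains often lay close together. Of 1524 gaps between domains next to each other on a chromosome, 561 (36.8%) were under 100 kb and 188 were under 10 kb, and the median gap was 227.9 kb, where 1 domain per 1672 kb would be the mean spacing. Joined across gaps under 100 kb, 850 domains (55.1%) fell into 289 runs and 694 stood alone. The longest run, 12 domains on chromosome 15 from 100588201 to 100965000, spanned 376.8 kb, of which 79.0% was domain. The next were 11 domains on chromosome 11 from 101631601 to 102323600 (692.0 kb) and 10 on chromosome 8 from 123319801 to 123846200 (526.4 kb). Close neighbours can be pieces of a single larger domain that the merging left apart, and what separates them was not tested.

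The groups filled the shared domains to different degrees. The median share of a domain's width under islands was 80.9% in DKO CD8 (middle 50% of domains 67.1 to 90.8%), 94.1% in WT CD4 (88.4 to 97.8%) and 57.9% in WT CD8 (41.9 to 69.9%). DKO CD8 coverage exceeded that of WT CD8 in 85.0% of domains, WT CD4 coverage exceeded that of WT CD8 in 95.5%, and DKO CD8 exceeded WT CD4 in 21.1%. Islands inside domains numbered 3195 in DKO CD8, 2808 in WT CD4 and 4118 in WT CD8. WT CD8 thus broke the same domains into more and smaller pieces. Coverage was at least 50% in 1401 domains in DKO CD8, 1527 in WT CD4 and 986 in WT CD8.

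Read density followed the same order. The median density was 28.1 reads per kb of domain in DKO CD8, 31.8 in WT CD4 and 9.99 in WT CD8, before any scaling. The domains held 41.1% of all H3K27me3 island reads in DKO CD8, 34.7% in WT CD4 and 17.7% in WT CD8. Within the islands themselves the density in domains was 40.3 reads per kb in DKO CD8, 38.2 in WT CD4 and 19.6 in WT CD8. The same measure over all islands of a library was 32.0 in DKO CD8, 28.4 in WT CD4 and 21.2 in WT CD8. For DKO CD8 and WT CD4 the domain islands were denser than the library's islands as a whole, and in WT CD8 they were not. The whole lists held 23933 islands over 96.1 Mb in DKO CD8, 34013 over 142 Mb in WT CD4 and 34756 over 121 Mb in WT CD8, so the WT CD8 list had the most islands and the fewest reads. With 1 library each, depth and enrichment of a library cannot be told apart from its group.

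**Figure D2:**
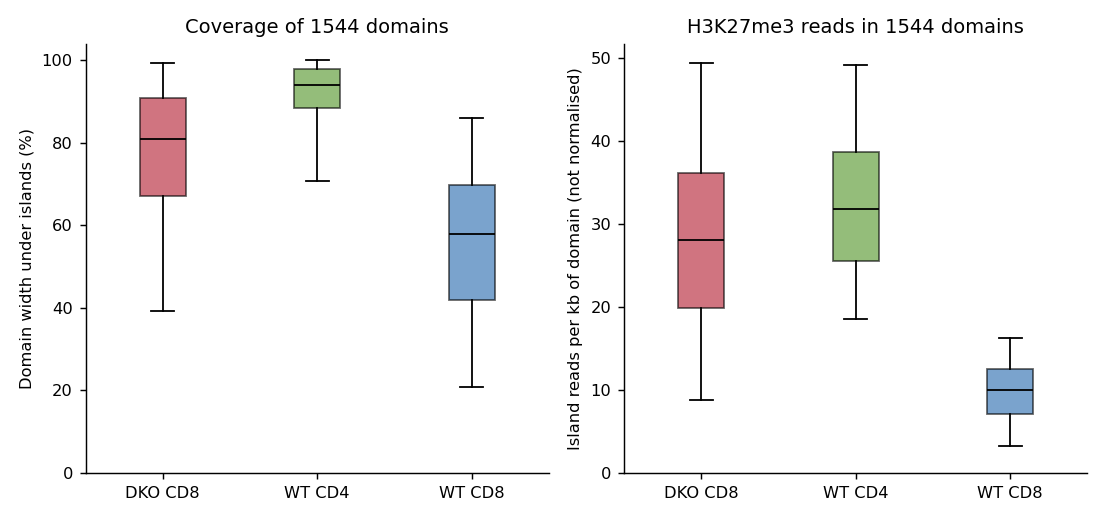
Share of each domain's width under H3K27me3 islands (left, %) and H3K27me3 island reads per kb of domain (right, not normalised) over the 1544 domains. Boxes show the middle 50% of domains with the median and whiskers the 5th and 95th percentiles. WT CD8 lies lowest in both, with medians of 57.9% and 9.99 reads per kb.

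Median coverage and median density were higher in wider classes of domains in all 3 groups. In domains of 15 to under 20 kb the median coverage was 76.2% in DKO CD8, 92.6% in WT CD4 and 53.4% in WT CD8. In domains of 50 kb or more it was 89.7% in DKO CD8, 96.4% in WT CD4 and 70.1% in WT CD8. The median density over the same classes was 25.1 and 37.3 reads per kb for DKO CD8, 29.4 and 38.5 for WT CD4, and 8.85 and 12.6 in WT CD8. These are medians of width classes, and single domains depart from them: the widest had 42.0 reads per kb in DKO CD8 and 13.4 in WT CD8, against 419.8 and 337.1 in the 16.4 kb domain of very high signal on chromosome 17.

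Most domains lay within 2-fold between DKO CD8 and WT CD8, the comparison that bears on the loss of Tcf1 and Lef1, once ratios were centred on those of all common regions. Ratios of island reads were divided by the median ratio over the 7266 common regions, 2.56-fold towards DKO CD8. On that scale 1366 domains (88.5%) lay within 2-fold, 96 (6.22%) exceeded WT CD8 by 2-fold or more and 82 (5.31%) fell short of it by 2-fold or more. Over all common regions 5.85% were higher and 15.1% lower. The domains were chosen on these same libraries, so nothing is read from the difference between these shares. The median log2 ratio of the domains was 0.22 (middle 50%, -0.10 to 0.50), and that of the narrower common regions was -0.09 (-0.74 to 0.39). Divided by total island reads instead, each log2 ratio lies 1.1 higher, in domains and in all common regions alike. That puts 1152 domains at 2-fold or more above WT CD8 and 21 below, so the share within 2-fold rests on the scale. The share of all common regions past 2-fold was not counted on that scale, so these counts describe no trait of the domains.

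The domains past 2-fold on the higher side were all poorly covered in a library. Of the 927 domains whose islands covered at least 50% of the width in both libraries, a condition chosen after seeing the data, 0 exceeded WT CD8 by 2-fold and 17 fell short by 2-fold. All 96 domains called higher in DKO CD8 had islands of DKO CD8 or WT CD8 over less than 50% of the width. Reads between islands are not known, so such ratios compare islands of different extent. Coverage and reads come from the same islands, so the condition itself removes domains with little WT CD8 signal. No share over all common regions was counted under this condition, and nothing about the domains is read from the 0 and 17.

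Among domains covered to at least 50% in both libraries, the highest ratio was on chromosome 4 from 22413001 to 22428800. It held 753 reads in DKO CD8 and 148 in WT CD8, a centred log2 ratio of 0.99 (95% interval 0.74 to 1.26), with 799 reads in WT CD4. No island of H3K4me3, H3K27ac or H3K9ac lay in it in any group. Next came chromosome 10 from 80904401 to 80934200, with 1461 reads in DKO CD8 and 303 in WT CD8 (0.92, 0.74 to 1.1). The lowest was chromosome 4 from 55238801 to 55265200, with 250 reads in DKO CD8 and 318 in WT CD8 (-1.70, -1.95 to -1.46). This domain also held a Tcf1 peak of splenic CD8 cells, had 727 reads in WT CD4 and had no island of the other marks. Next lowest was chromosome 9 from 42560401 to 42580000, with 197 reads in DKO CD8 and 240 in WT CD8 (-1.64, -1.92 to -1.36). These ends of the distribution were chosen for their values and the intervals cover counting error only.

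The domains least covered in DKO CD8 were of another sort. On chromosome 17, from 13571401 to 13622600 (51.2 kb), DKO CD8 had a single island over 3.52% of the width with 54 reads, where WT CD4 had 889 reads and WT CD8 had 577. The WT CD4 island lay over the left of this domain and the WT CD8 island over the right, overlapping in a short stretch in the middle, as the maps of single domains show. H3K4me3 islands were present there in each group, 4 in DKO CD8, 5 in WT CD4 and 4 in WT CD8. A wider domain close by on the same chromosome, from 13362801 to 13447800 (85.0 kb), had DKO CD8 islands over 10.8% of its width, WT CD4 over 75.3% and WT CD8 over 26.1%. It held 256 reads in DKO CD8, 1709 in WT CD4 and 518 in WT CD8, and 7 H3K4me3 islands in DKO CD8, 10 in WT CD4 and 9 in WT CD8. On chromosome 4 from 46593801 to 46618000, DKO CD8 had 34 reads, WT CD4 had 991 and WT CD8 had 173. H3K27ac islands covered 36.4% of that domain in DKO CD8, 16.5% in WT CD4 and 2.5% in WT CD8.

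**Figure D3:**
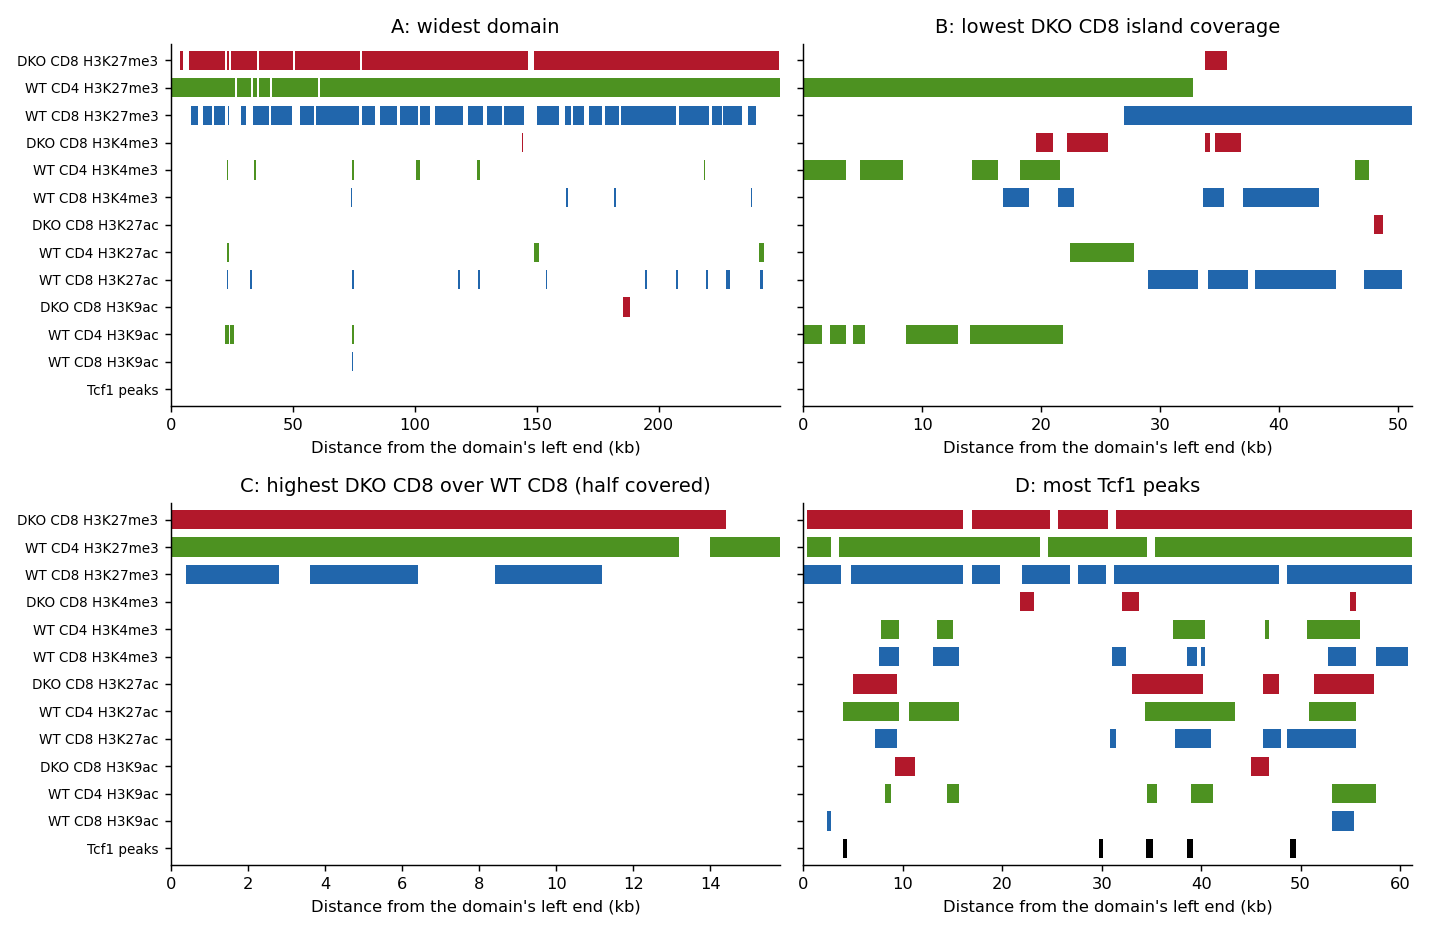
Islands of the 12 histone libraries and Tcf1 peaks in 4 domains, by distance from the left end of the domain (kb); each bar is a called island or peak. A is the widest domain (249.6 kb), B the domain with the lowest DKO CD8 coverage (3.52%), C the domain with the highest DKO CD8 over WT CD8 ratio among those covered to at least 50% in both (log2 0.99), and D the domain with 5 Tcf1 peaks. Tcf1 peaks are drawn with a minimum width so that they can be seen. H3K27me3 islands fill most of A and D in each group, while in B the WT CD4 and WT CD8 islands lie over largely different stretches and the small DKO CD8 island lies within the WT CD8 island.

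Between the wild-type lineages most domains again lay within 2-fold on the centred scale. The median ratio over common regions favoured WT CD4 over WT CD8 2.98-fold. Relative to it 1394 domains (90.3%) lay within 2-fold, 118 (7.64%) were higher in WT CD4 by at least 2-fold and 32 (2.07%) lower, where 6.01% of all common regions were higher and 10.6% lower. Of 974 domains covered to at least 50% in both libraries, 0 were higher in WT CD4 by at least 2-fold and 19 were lower. As above, this condition acts on the ratio itself, so nothing is read from these counts. The median log2 ratio over all domains was 0.16 (-0.08 to 0.45). Divided by total island reads instead, 924 domains were at 2-fold or more above WT CD8 and 11 below, so the share within 2-fold rests on the scale. Again the share of all common regions was not counted on that scale. The highest among the well covered was again the chromosome 4 domain that starts at 22413001, with 799 reads in WT CD4 and 148 in WT CD8 (log2 0.86, 0.60 to 1.12). The lowest among the well covered was chromosome 6 from 124828401 to 124845000, with 513 reads in WT CD4 and 1031 in WT CD8 (-2.58, -2.74 to -2.43). That domain held 2366 reads in DKO CD8, and H3K27ac islands covered 59.0% of it in DKO CD8, 57.8% in WT CD4 and 59.0% in WT CD8. Both comparisons have the same WT CD8 library as denominator, so they are not independent.

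DKO CD8 was then set directly against WT CD4, 2 libraries whose depth in domains was alike. The centring ratio was 0.875-fold, 1451 domains (94.0%) lay within 2-fold, 13 (0.842%) had 2-fold more in DKO CD8 and 80 (5.18%) 2-fold less. Over all common regions 2.3% were higher and 7.36% lower. Of 1394 domains covered to at least 50% in both, 10 were higher and 4 lower. Most of the 80 lower domains were thus covered to less than 50% in a library, a condition tied to the ratio itself. Among those covered to at least 50% in both, the highest was the same chromosome 6 domain (log2 2.40, 2.26 to 2.54). In DKO CD8 its H3K27me3 island covered 9200 bp, at 142.5 reads per kb of domain, against a median of 28.1 over the domains. H3K27ac and H3K9ac covered a like length there in DKO CD8, 9800 and 9400 bp, and H3K4me3 had no island. Copy number, repeated sequence and mapping at this domain were not tested. Next came chromosome X from 11650401 to 11670000, with 752 reads in DKO CD8 and 288 in WT CD4 (log2 1.58, 1.38 to 1.78) and 41 in WT CD8. The third was chromosome 11 from 96870601 to 96886000, with 594 reads in DKO CD8 and 249 in WT CD4 (1.45, 1.23 to 1.67) and 112 in WT CD8. The lowest of these was the chromosome 4 domain that starts at 55238801 (-1.35, -1.56 to -1.14).

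**Figure D4:**
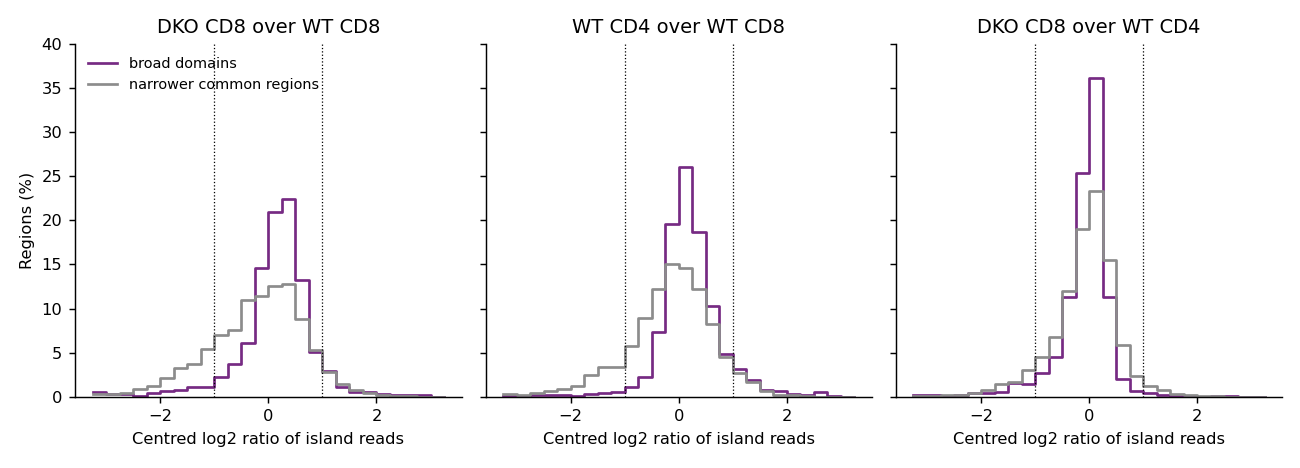
Centred log2 ratio of H3K27me3 island reads for broad domains (purple) and narrower common regions (grey) in the 3 comparisons, as percent of regions per bin of the ratio; the end bins also hold values beyond 3. Dotted lines mark 2-fold. Within 2-fold lie 88.5% of the domains for DKO CD8 over WT CD8, 90.3% for WT CD4 over WT CD8 and 94.0% for DKO CD8 over WT CD4.

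The 7 domains on chromosome X spread widely in the DKO CD8 over WT CD8 ratio, with log2 values of 2.84, 2.48, 1.26, 1.12, 0.47, -0.68 and -0.94. The 2 highest were neighbours, from 11650401 to 11670000 and from 11698601 to 11720000. The first held 752 reads in DKO CD8, 288 in WT CD4 and 41 in WT CD8, and the second 726 in DKO CD8, 329 in WT CD4 and 51 in WT CD8. WT CD8 islands covered 20.4% of the first and 15.9% of the second, so these ratios set a nearly full domain against a small island. The pair held 3 Tcf1 peaks, 1 in the first and 2 in the second. H3K27ac islands covered 56.1% of the first domain in DKO CD8, 54.1% in WT CD4 and 31.6% in WT CD8, and 29.0%, 51.4% and 20.6% of the second in the same order of groups.

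The other marks were not used to choose the domains. H3K4me3 islands were present in 369 domains in DKO CD8 (23.9%, 21.8 to 26.1), 868 in WT CD4 (56.2%, 53.7 to 58.7) and 811 in WT CD8 (52.5%, 50.0 to 55). Each group had one in 191 domains (12.4%) and no group had any in 318 (20.6%). A wide region meets more islands by its width alone, and among narrower common regions the shares were 12.3% in DKO CD8, 28.6% in WT CD4 and 23.1% in WT CD8. Counted by bases, H3K4me3 islands covered 1.51% of domain sequence in DKO CD8, 4.09% in WT CD4 and 3.17% in WT CD8. In narrower common regions they covered 1.48% in DKO CD8, 3.94% in WT CD4 and 2.64% in WT CD8. Over the whole sequence they covered 0.842% in DKO CD8, 1.08% in WT CD4 and 1.47% in WT CD8. Without the 4 domains of very high signal, the domain values were 1.24% in DKO CD8, 3.68% in WT CD4 and 2.72% in WT CD8. By these values H3K4me3 was denser in H3K27me3 regions, broad and narrow alike, than over the sequence as a whole, in each group.

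By the median reads of single islands, these H3K4me3 islands were close to H3K4me3 islands in general, and most were seen in a single library. Their median was 17 reads in DKO CD8, 18 in WT CD4 and 15 in WT CD8, close to the medians of all H3K4me3 islands (17, 19 and 16 in the same order). Of 2740 merged H3K4me3 regions in domains, 69 (2.52%, 1.96 to 3.18) had an island in each group, against 7.91% of all 76060 H3K4me3 regions. A single library accounted for 2486 of the 2740 (90.7%, against 85.3% of all H3K4me3 regions), namely 307 in DKO CD8, 1170 in WT CD4 and 1009 in WT CD8. Over all H3K4me3 regions, 64861 came from a single library, namely 14108 in DKO CD8, 18729 in WT CD4 and 32024 in WT CD8. The 69 common H3K4me3 regions lay in 68 of the 1544 domains, whether or not a group's own H3K27me3 island covered the site. Those 69 had medians of 28 reads in DKO CD8, 45 in WT CD4 and 29 in WT CD8. Over all H3K4me3 regions called in each group the medians were 33, 54 and 31 in the same order, so the common regions in domains were weaker.

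H3K4me3 reads could be compared between DKO CD8 and WT CD8 at 100 regions in domains. Of these, 5 were higher in DKO CD8 by at least 2-fold (5%, 1.64 to 11.3) and 10 lower (10%, 4.90 to 17.6), where 5.9% of all H3K4me3 regions of both libraries were higher and 7.42% lower. The counting intervals of both shares held the background, so relative to other H3K4me3 regions no departure in the domains was detectable at this depth. Between WT CD4 and WT CD8, 8 of 172 regions were at least 2-fold higher in WT CD4 and 27 lower (15.7%, 10.6 to 22.0), with 6.17% higher and 8.1% lower over all regions. Between DKO CD8 and WT CD4, 20 of 120 were higher in DKO CD8 (16.7%, 10.5 to 24.6) and 12 lower (10%), with 6.08% and 4.35% over all regions. Regions in domains were weaker than the rest, with medians of 21 reads for DKO CD8 and 37.5 for WT CD4 in the last comparison, against 30 and 48 over all. Divided by total island reads instead, the higher and lower counts were 27 and 2 for DKO CD8 over WT CD8 and 47 and 6 for WT CD4 over WT CD8. For DKO CD8 over WT CD4 they were 14 and 17, so the direction of the calls rests on the scale. Shares over all H3K4me3 regions were not counted on that scale. The part of weak signal in these shares was not tested.

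H3K27ac, the mark that H3K27me3 excludes on a histone tail, had islands in 675 domains in DKO CD8 (43.7%, 41.2 to 46.2), 624 in WT CD4 (40.4%, 38.0 to 42.9) and 887 in WT CD8 (57.4%, 54.9 to 59.9). The bases under H3K27ac islands were more alike between groups, at 4.68% of domain sequence in DKO CD8, 5.20% in WT CD4 and 4.75% in WT CD8. Without the 4 domains of very high signal they were 4.24% in DKO CD8, 4.75% in WT CD4 and 4.48% in WT CD8. Over the whole sequence they were 2.29% in DKO CD8, 2.49% in WT CD4 and 3.23% in WT CD8. Islands inside domains held a median of 25 reads in DKO CD8, 36 in WT CD4 and 18 in WT CD8, below the medians of all H3K27ac islands (34, 59 and 24 in the same order). H3K27ac called inside broad H3K27me3 domains was therefore present but weaker than elsewhere. Of 2522 H3K27ac regions in domains, 163 (6.46%, 5.53 to 7.49) were called in each group, against 12.4% of all H3K27ac regions.

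At H3K27ac regions of both libraries, those inside domains stood lower in DKO CD8 than in WT CD8 relative to other regions. Of 248 such regions, 14 (5.65%) were higher in DKO CD8 by at least 2-fold and 86 (34.7%, 28.8 to 41.0) lower, where 8.19% of all regions were higher and 15.1% lower. Their median centred log2 ratio was -0.65 (middle 50%, -1.29 to 0.11). WT CD4 over WT CD8 gave 12 of 240 higher and 81 (33.8%, 27.8 to 40.1) lower, with 6.33% and 13.6% over all regions, and a median of -0.51. DKO CD8 over WT CD4 gave 22 of 362 in each direction (6.08%), with 4.32% higher and 7.29% lower over all regions, and a median of -0.01. Both comparisons with the WT CD8 library, which they share, gave lower medians, and the comparison without it gave a median near 0. Regions in domains had medians of 43 reads in DKO CD8 and 22 in WT CD8, against 90 and 32 over all regions. Among regions where either library reached 50 reads, a minimum set after seeing the data, 21 of 118 regions in domains (17.8%) were lower in DKO CD8, against 6.94% of 8299, and 14 (11.9%) were higher, against 10.7%. Their median was 0.09, against 0.21 for all such regions. The centring ratio was 2.75-fold towards DKO CD8, so a region reached the minimum more readily through high DKO CD8 reads. Such a minimum raises the ratios kept, so these values cannot show whether the stronger regions lack the lower ratios of the full set. On total island reads every DKO CD8 over WT CD8 ratio lies 1.53 higher, which puts 108 regions in domains at 2-fold or more above WT CD8 and 12 below. On that scale WT CD4 over WT CD8 gave 125 higher and 9 lower, and DKO CD8 over WT CD4 gave 19 higher and 24 lower. The direction of the calls thus rests on the scale, on which shares over all H3K27ac regions were not counted. The part of weak signal in these shares was not tested.

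H3K9ac, also a mark of active sequence, had islands in 75 domains in DKO CD8 (4.86%, 3.84 to 6.05), 786 in WT CD4 (50.9%, 48.4 to 53.4) and 325 in WT CD8 (21.0%, 19.0 to 23.2). The whole lists differ in the same order, with 6516 islands in DKO CD8, 32651 in WT CD4 and 9860 in WT CD8, and island shares in domains cannot be told apart from how much was called. Islands per Mb of domain were 1.94 in DKO CD8, 30.1 in WT CD4 and 9.87 in WT CD8, against 2.52, 12.6 and 3.82 per Mb over the whole sequence in the same order. By bases, H3K9ac islands covered 0.708% of domain sequence in DKO CD8, 4.78% in WT CD4 and 1.70% in WT CD8, against 0.446%, 1.77% and 0.524% of the whole sequence in the same order. Without the 4 domains of very high signal the domain values were 0.514% in DKO CD8, 4.31% in WT CD4 and 1.46% in WT CD8. In narrower common regions H3K9ac islands covered 0.508% of bases in DKO CD8, 4.68% in WT CD4 and 1.31% in WT CD8. Relative to the whole sequence, H3K9ac was thus denser in domains by both measures in WT CD4 and WT CD8. In DKO CD8 it was denser by bases and less dense by number of islands. By bases the narrower common regions also lay above the whole sequence in each group, so this is not particular to broad domains. Of 1557 H3K9ac regions in domains, 18 (1.16%) were called in each group, against 6.84% of all H3K9ac regions. Between DKO CD8 and WT CD8, 19 regions in domains could be compared, of which 0 were higher in DKO CD8 by at least 2-fold and 1 lower, with 3.88% and 3.63% over all regions. Between WT CD4 and WT CD8, 3 of 86 were higher in WT CD4 and 33 lower (38.4%, 28.1 to 49.5), with 6.36% and 11.4% over all regions. Between DKO CD8 and WT CD4, 8 of 37 were higher in DKO CD8 (21.6%, 9.83 to 38.2) and 3 lower, with 6.07% and 3.43% over all regions. As for H3K27ac, the regions in domains stood lower in WT CD4 than in WT CD8 relative to all regions, on few regions of low depth, with medians of 34 reads in WT CD4 and 23 in WT CD8. Divided by total island reads instead, the higher and lower counts for H3K9ac were 5 and 1 for DKO CD8 over WT CD8. They were 0 and 64 for WT CD4 over WT CD8, and 29 and 0 for DKO CD8 over WT CD4. Shares over all H3K9ac regions were not counted on that scale.

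Together, 76 domains (4.92%, 3.90 to 6.12) had no island of H3K4me3, H3K27ac or H3K9ac in any group, and 11 had islands of all 9 libraries of these marks. Domains without any of the 3 marks in a group numbered 692 in DKO CD8 (44.8%), 311 in WT CD4 (20.1%) and 319 in WT CD8 (20.7%). Wide regions meet islands by their width alone, so these shares are given as a description.

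To place the active marks within domains, within each group the bases of domains under its own H3K27me3 islands were set beside the bases in the gaps between them, 8.38 Mb in DKO CD8, 3.16 Mb in WT CD4 and 16.6 Mb in WT CD8. H3K27ac islands covered 5.34% of bases inside and 2.18% outside H3K27me3 islands for DKO CD8, 5.19% and 5.29% for WT CD4, and 6.31% and 2.57% in WT CD8. H3K4me3 islands covered 1.62% inside and 1.08% outside for DKO CD8, 4.19% and 2.85% for WT CD4, and 4.06% and 1.95% in WT CD8. Without the 4 domains of very high signal, H3K27ac covered 4.80% inside and 2.18% outside for DKO CD8, 4.70% and 5.30% for WT CD4, and 5.86% and 2.57% in WT CD8. H3K4me3 then covered 1.29% inside and 1.07% outside for DKO CD8, 3.75% and 2.86% for WT CD4, and 3.28% and 1.95% in WT CD8. Gaps in H3K27me3 were thus not where H3K27ac and H3K4me3 were mostly called, except for H3K27ac in WT CD4, where the values were nearly equal. Islands span several nucleosomes in a population of cells, so overlap does not place both marks on the same nucleosome. The outer 20% of the width, taken at both ends together, held 22.1% of the H3K4me3 islands centred in a domain in DKO CD8, 16.2% for WT CD4 and 19.6% for WT CD8. For H3K27ac it held 15.3% in DKO CD8, 15.3% for WT CD4 and 15.6% for WT CD8, so neither mark was gathered at the ends.

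**Figure D5:**
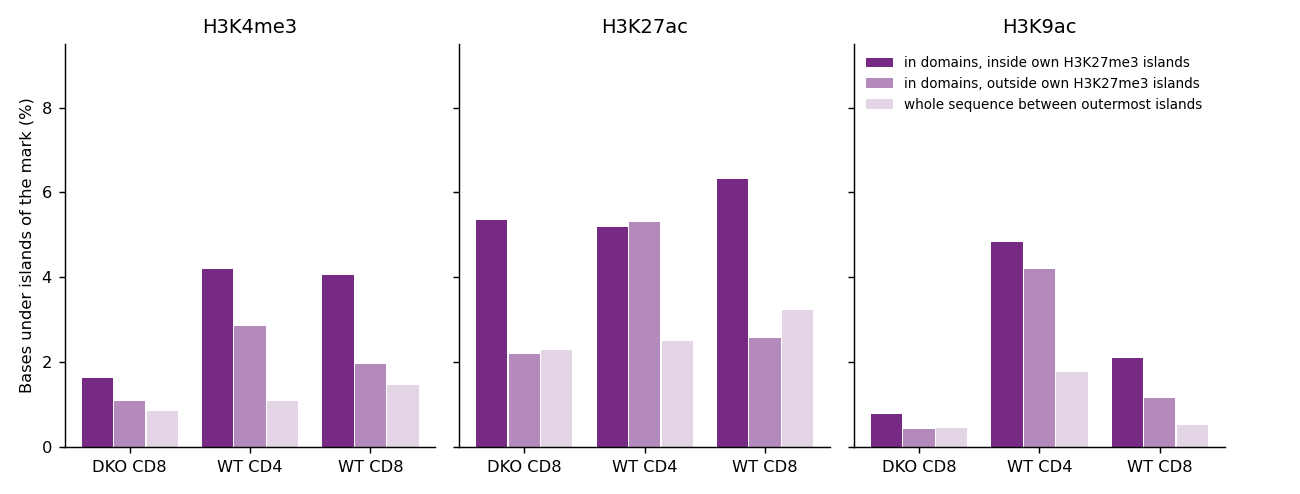
Percent of bases under islands of H3K4me3, H3K27ac and H3K9ac in each group, inside the group's own H3K27me3 islands within domains (dark), in domain sequence outside them (medium) and over the whole sequence between the outermost islands (light). In DKO CD8 and WT CD8 the dark bars are highest for each mark, and for H3K27ac in WT CD4 the dark and medium bars are at 5.19% and 5.29%.

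Peaks of Tcf1 came from splenic CD8 cells, not thymocytes, so a peak in a domain pairs 2 tissues. Of 7807 Tcf1 peaks, 161 (2.06%, 1.76 to 2.40) lay in domains, and 146 domains (9.46%, 8.04 to 11) held at least 1. Per Mb this was 4.05 peaks in domains, 4.61 in narrower common regions and 3.02 over the whole sequence. The authors' score had a median of 76.6 in domains and 76.4 over all peaks, so peaks in domains were not weaker by that score. The rate was alike over domain widths, at 4.04 per Mb in domains under 20 kb and 4.06 in those of 50 kb or more.

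Peaks in domains differed between groups in the chromatin around them. H3K27me3 islands held 141 of the 161 in DKO CD8 (87.6%, 81.5 to 92.2), 135 in WT CD4 (83.9%, 77.2 to 89.2) and 83 in WT CD8 (51.6%, 43.6 to 59.5). H3K27me3 islands covered 78.9% of all domain bases in DKO CD8, 92.0% in WT CD4 and 58.2% in WT CD8. The share of peaks was thus lowest in the least covered library, WT CD8. Between DKO CD8 and WT CD4 the order of the shares was not that of coverage. H3K27ac islands held 68 in DKO CD8 (42.2%, 34.5 to 50.3), 79 in WT CD4 (49.1%, 41.1 to 57.1) and 36 in WT CD8 (22.4%, 16.2 to 29.6). Of all Tcf1 peaks, H3K27ac islands held 74.8% in DKO CD8, 81.5% in WT CD4 and 55.8% in WT CD8. H3K4me3 islands held 8.70% of the peaks in domains in DKO CD8 (4.84 to 14.2), 22.4% in WT CD4 (16.2 to 29.6) and 14.3% in WT CD8 (9.28 to 20.7), against 35.5%, 41.6% and 34.5% of all peaks in the same order. For both marks and in each group the counting interval of the share in domains lay below the share of all Tcf1 peaks.

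The domain with the most Tcf1 peaks, 5, lay on chromosome 17 from 35522801 to 35584000 (61.2 kb). It held 3577 H3K27me3 reads in DKO CD8, 3206 in WT CD4 and 1372 in WT CD8, and its centred log2 ratio of DKO CD8 over WT CD8 was 0.03 (-0.06 to 0.12). H3K27ac islands covered 31.4% of it in DKO CD8, 39.9% in WT CD4 and 24.8% in WT CD8, and each group had H3K4me3 and H3K9ac islands there. No other domain held more than 2 peaks. Among those with 2, the domain on chromosome 7 from 114794801 to 114820600 held 444 reads in DKO CD8, 829 in WT CD4 and 260 in WT CD8, and H3K27ac islands covered 13.2% of it in DKO CD8, 22.5% in WT CD4 and none in WT CD8. A wider one, on chromosome 7 from 150127201 to 150191200, held 2933 reads in DKO CD8, 1911 in WT CD4 and 887 in WT CD8 (log2 DKO CD8 over WT CD4, 0.81, 0.73 to 0.89).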

How the data were processed

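Chromatin immunoprecipitation and sequencing of 4 histone marks in 3 thymocyte groups and of Tcf1 in splenic CD8 cells gave the 13 processed files used here. Tools listed in the submitters' processing notes are SICER 1.1, MACS 1.4.2, Bowtie2 2.2.5 and FastQC, without their roles, and the build is mm9. The deposited island lists give a whole-number read count per island, not normalized, on a grid of 200 bp. H3K27me3 islands lie at least 800 bp apart. Each Tcf1 peak has a deposited score of the authors, used only to describe and rank peaks. Per the labels a Tcf1-deficient library was its control. Per the labels some samples, unnamed, were sequenced a second time. Inputs were not analysed here.

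Islands sharing at least 1 bp were merged, and reads of a domain are the summed counts of its islands. Log2 ratios were centred on their median over regions common to the 3 groups (other marks: of both libraries), with no pseudocount and exact conditional intervals at 95%. Named regions followed a rule of widest, nearest the width limit, least covered, highest and lowest ratio (islands over at least 50% of the width in both libraries), most Tcf1 peaks, most H3K27ac, most H3K4me3 reads among those with H3K4me3 in each group, and longest runs; those on chromosome X and those with very high signal were chosen after their values were seen. Members, lists and rules were chosen with earlier results of these data known. Planned gene lists were not run, since no annotation of the mm9 build was used here. Merging and overlap were checked against bedtools 2.31.1, and simulated counts with known ratios were recovered by the ratio step. Scripts ran under Python 3.11.15 with pandas 2.3.3 and numpy 2.4.6; intervals came from SciPy 1.17.1 and plots from matplotlib 3.10.9.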

Additional observations from a re-analysis of the deposited data

How the results depend on the processing

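No paired analysis was possible because each group has 1 library per mark. Of 159 values recomputed for 25 results, 92 stayed within set bounds and 67 did not. The bounds were the interval for shares and medians and 1.5 times the reported count for counts. For H3K27ac in gaps, which had no interval, they were a chosen margin around the value. With a width minimum of 10000 bp, 2993 domains were found, with median coverage of 78.4% in DKO CD8, 92.9% in WT CD4 and 55% in WT CD8. Higher and lower domains then numbered 224 and 227 for DKO CD8 over WT CD8, 279 and 99 for WT CD4 over WT CD8, and 31 and 201 for DKO CD8 over WT CD4. The width minimum does not change the shares over all 7266 common regions. Higher and lower, these stay 5.85% and 15.1%, 6.01% and 10.6%, and 2.3% and 7.36% in the same order of comparisons. In DKO CD8, WT CD4 and WT CD8 in turn, domains with H3K4me3 were 19.98%, 47.5% and 42.2%, and with H3K27ac 36.9%, 33.8% and 46.3%; with H3K9ac they were 42.0% in WT CD4 and 16.8% in WT CD8. Domains with a Tcf1 peak were 7.38%, and H3K4me3 regions higher and lower in DKO CD8 than in WT CD8 were 8 and 16. With a minimum of 20000 bp, 866 domains had median coverage of 83.7% in DKO CD8, 95.1% in WT CD4 and 60.8% in WT CD8. The counts were 37 and 36 for DKO CD8 over WT CD8, 48 and 13 for WT CD4 over WT CD8, and 6 and 33 for DKO CD8 over WT CD4. In the same order of groups, H3K4me3 was in 29.6%, 64.4% and 60.7% of domains, H3K27ac in 51.6%, 48.0% and 65.0%, and H3K9ac in 6.12%, 61.2% and 26%. Tcf1 peaks were in 11.5%, H3K4me3 regions numbered 3 higher and 6 lower, and H3K27ac covered 6.49% of gaps in WT CD4. The regions kept differ in number and width between these settings, and what lies behind the moves was not tested.

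With H3K27me3 islands above the median reads of their list, coverage was 94.9% in WT CD4 and 52.7% in WT CD8. Divided by total island reads, higher and lower domains were 1152 and 21 for DKO CD8 over WT CD8 and 924 and 11 for WT CD4 over WT CD8. For DKO CD8 over WT CD4, 21 were higher, and H3K4me3 regions were 27 higher and 2 lower in DKO CD8 than in WT CD8. The split between directions thus rests on the scale, on which shares over all regions were not counted. At 3-fold the domain counts were 30 and 46, 38 and 17, and 3 and 31 for the 3 comparisons in that order, and 1 and 3 for H3K4me3 regions. Shares over all regions were not counted at 3-fold, so these counts describe no trait of the domains. With Tcf1 peaks above the median score, 4.79% of domains held a peak. Among domains covered to at least 50% in both libraries, chosen after seeing the data, the counts were 0 and 17 for DKO CD8 over WT CD8, 0 and 19 for WT CD4 over WT CD8, and 4 lower for DKO CD8 over WT CD4. Leaving out the 4 domains of very high signal, or chromosomes X and Y, moved none of the 25 results beyond these bounds; neither did requiring at least 50% of an island or peak inside the domain for the shares with islands or a Tcf1 peak, nor equal covered length for the number of domains.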

Other observations

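The 3 domains that WT CD8 filled least are described next. A domain is the union of the islands of the 3 groups, so the other groups must cover most of their width. Higher coverage in those groups is therefore no result. On chromosome 15 from 100826401 to 100843000, inside the longest run of neighbouring domains, H3K27me3 reads numbered 366 in DKO CD8, 485 in WT CD4 and 26 in WT CD8, and islands covered 85.5% of the width in DKO CD8, 91.6% for WT CD4 and 4.82% for WT CD8. On chromosome 8 from 123721601 to 123753000, inside the third longest run, there were 426 reads in DKO CD8, 640 in WT CD4 and 34 in WT CD8, over 58.6%, 90.4% and 5.73% of the width in the same order. On chromosome 2 from 164540601 to 164572000 there were 294 reads in DKO CD8, 537 in WT CD4 and 30 in WT CD8, over 45.9%, 82.8% and 4.46% of the width. In the chromosome 8 and chromosome 2 domains DKO CD8 coverage lay below the lower quartile of DKO CD8 coverage (67.1%). None of these 3 domains had H3K27ac islands over more than 7.01% of its width in any group.

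A few domains were filled by WT CD8 and hardly by the other groups. Those named here were chosen for low WT CD4 coverage, so high coverage in another group follows from the merging. On chromosome 16 from 3320601 to 3340800, DKO CD8 islands covered 4.95% of the width with 30 reads, WT CD4 islands 21.8% with 114 reads and WT CD8 islands 100% with 315 reads. On chromosome 6 from 3129201 to 3149800, DKO CD8 had 137 reads, WT CD4 175 and WT CD8 418, and the share of the width under H3K27ac islands was 0% for DKO CD8, 4.85% for WT CD4 and 56.3% for WT CD8.

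Some domains were covered nearly end to end by H3K27me3 and by a mark of active sequence in the same library. On chromosome X from 131574801 to 131592000, H3K4me3 islands covered 93.0% of the width in DKO CD8, 93.0% for WT CD4 and 0% for WT CD8, whereas H3K27ac islands covered 0% in DKO CD8, 0% for WT CD4 and 93.0% for WT CD8. H3K27me3 islands covered 95.3% of that domain in DKO CD8, 96.5% for WT CD4 and 100% for WT CD8. On chromosome 10 from 57683401 to 57704000, H3K4me3 islands covered 86.4% of the width in DKO CD8, 69.9% for WT CD4 and 67.0% for WT CD8, under H3K27me3 islands over 91.3%, 100% and 98.1% in the same order. Repeated sequence and mapping in these domains were not tested.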
